A study of Mus musculus with 4 samples.

Results

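The clustered replication-dependent histone genes encode the linker histone H1 and the core histones H2A, H2B, H3 and H4. They were followed here on the 4 arrays of a mouse macrophage experiment. An array row, which is one probe set with one signal per array, was a member when any gene symbol the platform annotation gives it was a clustered histone gene, by the older Hist names or by the current H1f, H2ac, H2bc, H3c and H4c names. The rule took 53 of the 23410 rows with a gene symbol. It used no measured value, but the members were chosen with earlier results of these data known.

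The cells were macrophages of C57BL/6N mice, derived from bone marrow, grown in 10 ng/mL M-CSF, the growth factor that drives macrophage differentiation, and collected on day 9. M2 cells had received 20 ng/mL IL-4 for 48 h, and M1 cells had received 10 ng/mL IFN-γ for 48 h. Each phenotype was then kept with 10 ng/mL interleukin-1α (IL-1α), an inflammatory cytokine, for 24 h, or with vehicle. The 4 groups are therefore M2 with IL-1α, M2 with vehicle, M1 with IL-1α and M1 with vehicle. Each holds 1 array, so differences between arrays have no replicate check, and the labels do not say whether the cultures came from separate animals.

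Replication-dependent histone genes are transcribed mainly in S phase, when new DNA has to be packed into nucleosomes. Their mRNAs end in a conserved stem-loop in place of a poly(A) tail. The stem-loop is bound by SLBP, and the co-activator NPAT drives transcription at the histone clusters. Core histones form the octamer around which DNA is wrapped, and H1 binds the linker DNA between nucleosomes. Macrophages grown in M-CSF can divide, and IFN-γ is known to restrain their proliferation. No array here came from cells without IL-4 or IFN-γ, so a rise in M2 and a fall in M1 cannot be told apart.

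Of the 63 clustered histone genes named on these rows, 53 lie on chromosome 13 and 10 on chromosome 3 in RefSeq's annotation of GRCm38.p6. Their coding sequences are so alike that the array reads many of them together. There were 27 rows with 1 gene, 2 rows with 2 genes and 24 rows that each name between 11 and 20 genes, mostly of a single class. The shared rows were 2 for H2A, 7 for H2B, 10 for H3 and 5 for H4. Thus 36 of the 63 genes were read in company only, and the 53 rows carry 35 distinct sets of symbols and 51 distinct sets of values. Rows of a shared set are repeated readings of the same genes, and 4 of the rows form pairs with identical values. Both shared H2A rows also name H2ax, which lies outside the clusters, and the H3 gene H3c4, and the brighter of them names H2aj as well.

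Each level is an RMA signal on the log2 scale, and a difference of 1 on that scale is 2-fold. The signal of a row depends on its probes, so levels are compared between arrays and never between rows. A floor was set at 7.66, the median signal of all rows with a gene symbol. Of the histone rows, 46 reached it on at least 1 array and 7 stayed under it on all 4. Across all rows, the arrays correlated at r = 0.996 within the M2 pair, 0.997 within the M1 pair and 0.964 between phenotypes under either treatment. Polarisation markers matched the labels. The IL-4-induced arginase gene Arg1 read 12.41 and 12.48 in M2 with IL-1α and with vehicle, against 6.55 and 6.75 in M1. The IFN-γ-induced nitric oxide synthase gene Nos2 was lower in M2, with differences of -5.89 with IL-1α and -6.21 with vehicle. All 8 rows of the macrophage markers reached the floor on every array.

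The histone rows stood higher in M2 than in M1, with IL-1α and with vehicle alike. With IL-1α, 26 of the 45 histone rows at the floor on an array compared were higher in M2 by 2-fold or more (57.8%), where 7.75% of all such rows were. With vehicle, 27 of 46 were (58.7%), where 6.70% of all rows were. No histone row was lower by 2-fold or more in either pair, where 6.01% of all rows were lower with IL-1α and 6.77% with vehicle. The count was 25 rows in both pairs. H2ac4, H3c4, H3c15, H4c8 and H2bc21 reached the floor in M2 only, so they entered these counts through the group where they read higher. Of these, H2ac4 was past 2-fold in both counts, and H3c4 and H3c15 in the vehicle count only. The median difference over all 53 rows was 1.02 with IL-1α and 1.08 with vehicle, where the median over all rows at the floor was 0.05 and 0.03. The sign was the same in both pairs for 51 of the 53 rows, all of them higher in M2, where 47.3% of all rows at the floor were higher in M2 in both pairs. The exceptions were H4c9 and the testis-specific linker histone H1f6.

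In a limma fit of phenotype and treatment as additive terms, 45 of the 46 histone rows at the floor were higher in M2 at a Benjamini-Hochberg adjusted p under 0.05, and none was lower. Of all 12457 rows tested, 35.2% were higher and 28.2% lower by the same rule. The row that did not pass was H4c9 (limma adjusted p = 0.473). The rows that passed include those at the floor in M2 only. These p-values set each effect against the departure of 4 arrays from additivity and measure no spread between cultures. In bulk RNA, more cells in S phase and more histone mRNA per such cell cannot be told apart.

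**Figure D1:**
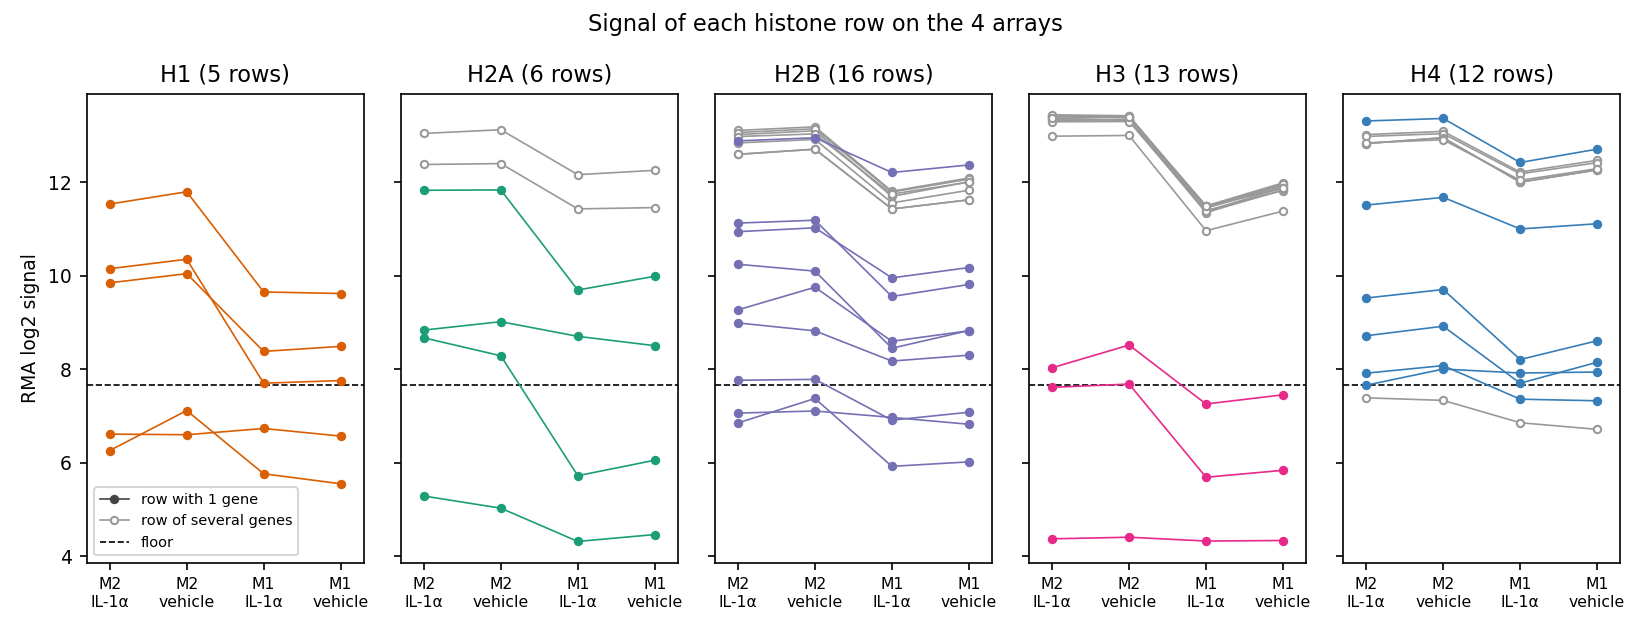
RMA log2 signal (vertical axis) of each histone row on the 4 arrays (horizontal axis), 1 panel per class. Filled points are rows with 1 gene and open grey points rows of several genes, each line joins a row, and the dashed line is the floor of 7.66. Most lines drop between the M2 and the M1 arrays, and the open H3 rows lie between 12.99 and 13.45 in M2 with IL-1α and between 10.97 and 11.50 in M1 with IL-1α. The row that names both H2bc6 and H1f4 is not drawn.

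Linker histones showed some of the widest gaps. H1f5 read 10.15 with IL-1α and 10.36 with vehicle in M2, against 7.70 and 7.76 in M1. Both M1 arrays were just above the floor, and the M2 level was 5.47-fold higher with IL-1α and 6.04-fold higher with vehicle. H1f2 read 11.54 and 11.80 in M2, against 9.66 and 9.62 in M1, a 3.68-fold and a 4.52-fold difference. H1f1 read 9.85 and 10.05 in M2, against 8.38 and 8.49 in M1. These are somatic linker histones, and in each of them both M2 arrays lay above both M1 arrays. H1f3, another somatic member, stayed under the floor at 6.26 and 7.12 in M2, against 5.77 and 5.55 in M1. H1f6 encodes the linker histone of spermatocytes. It was under the floor on every array, at 6.62 and 6.60 in M2, against 6.74 and 6.57 in M1. H1f4 was read only together with H2bc6, in a row at 8.74 and 9.04 in M2, against 8.04 and 8.07 in M1.

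Among the H2A rows with 1 gene, H2ac4 had the widest gap of all 53 rows with IL-1α. It read 8.67 and 8.29 in M2, against 5.73 and 6.06 in M1, so that it was above the floor in M2 and under it in M1. The difference was 7.72-fold with IL-1α and 4.71-fold with vehicle, and as the M1 signals lie under the floor, its size is uncertain. H2ac15 was bright on every array, at 11.83 and 11.84 in M2, against 9.70 and 9.99 in M1. Its difference was 2.13 with IL-1α and 1.85 with vehicle. The shared H2A rows were closer together: the brighter read 13.05 and 13.13 in M2, against 12.17 and 12.26 in M1, under 2-fold in both pairs. H2ac1, which encodes a testis-specific H2A, read 8.84 and 9.02 in M2, against 8.71 and 8.51 in M1. That gap of 0.13 with IL-1α and 0.51 with vehicle was the smallest among the H2A rows at the floor, though it passed in limma (adjusted p = 0.0223). H2ac8 was under the floor on all arrays.

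For H2B, H2bc3 read 10.25 and 10.10 in M2, against 8.45 and 8.83 in M1. H2bc14 read 11.13 and 11.19 in M2, against 9.56 and 9.82 in M1. Both passed 2-fold in each pair, as did all 7 shared H2B rows, with differences of 1.17 to 1.32 with IL-1α and 1.03 to 1.09 with vehicle. The vehicle differences of the shared rows lie close to the threshold. The other 5 H2B rows with 1 gene at the floor, H2bc4, H2bc8, H2bc9, H2bc18 and H2bc21, were higher in M2 by less than 2-fold. H2bc4 was the brightest of them, at 12.89 and 12.96 in M2, against 12.21 and 12.37 in M1. H2bc1, the testis-specific H2B, and H2bc22 stayed under the floor.

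H3 was read mostly through shared rows. All 10 shared H3 rows, each naming 12 genes, passed 2-fold in both pairs. Their differences were 1.83 to 2.02 with IL-1α and 1.42 to 1.62 with vehicle, and their medians read 13.37 and 13.37 in M2, against 11.46 and 11.89 in M1. As repeated readings of one gene group, they count as 10 of the 53 rows but not as 10 independent measurements. H3c15 read 7.62 and 7.69 in M2, against 5.69 and 5.84 in M1, and crossed the floor only in M2 with vehicle. H3c4 read 8.03 and 8.52 in M2, against 7.26 and 7.46 in M1. In H3c15 and H3c4 the M1 signals lie under the floor, so the sizes of their gaps are uncertain. H3c7 gave 4.37 and 4.41 in M2, against 4.33 and 4.34 in M1, all under the floor.

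H4 had the smallest gap of the 5 classes. Its median difference was 0.80 with IL-1α and 0.64 with vehicle, against 1.92 and 1.43 for H3, 1.17 and 1.08 for H2B, 0.96 and 0.91 for H2A, and 1.47 and 1.57 for H1. The classes hold unlike numbers of shared rows, and the H3 median comes mostly from its 10 shared rows. Over rows with 1 gene, the medians were 0.72 and 0.70 for H4, and 0.77 and 1.06 for H3. They were 0.85 and 0.85 for H2B, and 1.55 and 1.21 for H2A. All H1 rows are rows with 1 gene. Only in H4 did all rows with 1 gene reach the floor. The order of the classes was not tested. H4c6 read 9.53 and 9.71 in M2, against 8.21 and 8.61 in M1, and was the only H4 row past 2-fold in both pairs. H4c3 read 8.72 and 8.92 in M2, against 7.70 and 8.15 in M1. H4c4, the brightest, read 13.32 and 13.37 in M2, against 12.43 and 12.71 in M1. The 5 shared H4 rows differed by 0.80 to 0.83 with IL-1α and 0.62 to 0.69 with vehicle. H4c9 read 7.66 and 8.01 in M2, against 7.92 and 7.94 in M1, and its arrays overlapped.

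**Figure D2:**
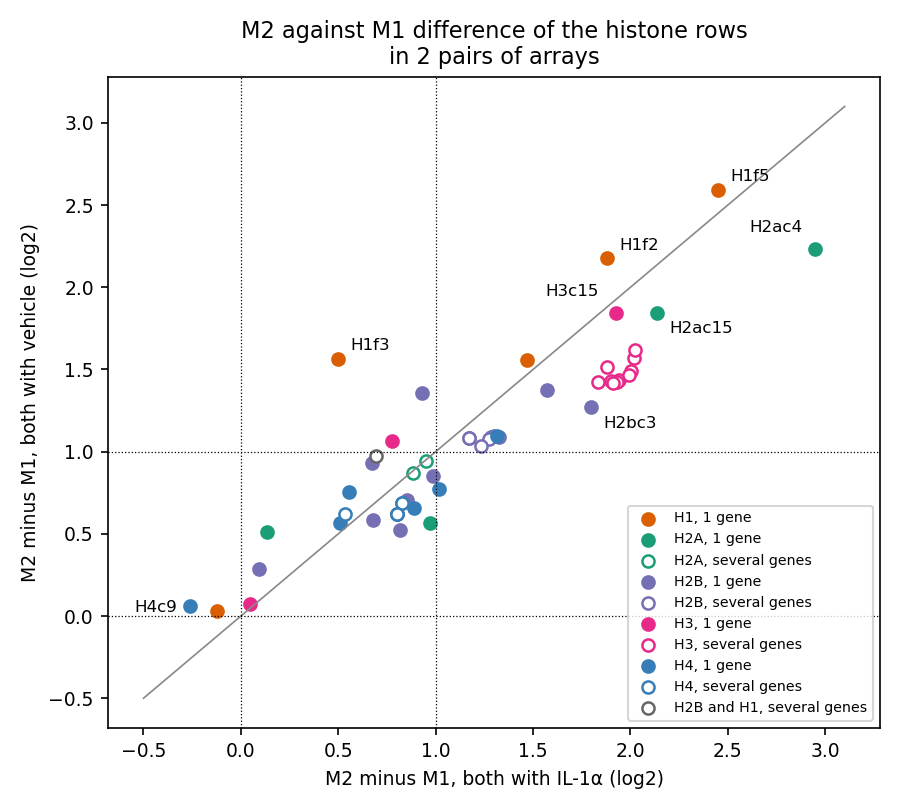
M2 minus M1 difference (log2) of each of the 53 histone rows with IL-1α (horizontal axis) and with vehicle (vertical axis), coloured by class, with open points for rows of several genes. Dotted lines mark 0 and 1 (2-fold) and the solid line equal differences. H1f5 and H2ac4 lie farthest out, the open H3 points form one tight group below the line of equal differences, and H4c9 and H1f6 lie left of 0.

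The 2 pairs of arrays share no sample. Across the 53 rows, which are not independent of each other, the M2 minus M1 differences of both pairs correlated at 0.892 (Pearson) and 0.861 (Spearman), given as a description. Rows with 1 gene had a lower median difference than shared rows, at 0.89 against 1.29 with IL-1α and 0.85 against 1.09 with vehicle. All 24 shared rows reached the floor but only 21 of the 27 rows with 1 gene did, so the sets are unlike. Among the rows with 1 gene alone, 9 of the 20 at the floor passed 2-fold in the IL-1α pair and 10 of 21 in the vehicle pair, all higher in M2. By position, the 23 rows with 1 gene on chromosome 13 had median differences of 0.93 with IL-1α and 0.93 with vehicle, and the 4 on chromosome 3 had 0.83 and 0.63. Of the 23, 17 reached the floor, as did all 4 on chromosome 3.

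Promoters of the clustered genes were read as well, as a description. No promoter element was tested against the M2 minus M1 differences. RefSeq held a promoter for 58 of the 63 genes. The 250 bases before the annotated start were searched on both strands for 4 elements known from histone promoters. They were the CCAAT box, the TATA box written as TATAAA, the octamer ATTTGCAT of H2B genes, which is bound by Oct1, and the H1 box AAACACA. Matches to TATAAA and AAACACA can share letters. CCAAT was found in 48 of the 58 (82.8%), against 37.5% of the 27025 promoters in the table, and TATAAA in 28 (48.3%), against 14.3%. ATTTGCAT was found in 13 (22.4%), against 1.81% of all promoters, and these were 7 of 14 H2B and 6 of 17 H2A promoters. AAACACA was found in 5 of 6 H1 promoters and in 9 of all 58 (15.5%), against 7.2% of all promoters. CCAAT was in every H1, H2A and H2B promoter, in 8 of 10 H3 promoters and in 3 of 11 H4 promoters. A match is a string of letters and not evidence of binding.

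For each class, the promoter of the 1-gene row at the floor with the widest mean gap between M2 and M1 is printed below, 250 bases up to the start, in the direction of transcription, in GRCm38.p6. Capitals mark any of the 4 elements, on either strand.
H1f5, chr13:21780626-21780875, minus strand: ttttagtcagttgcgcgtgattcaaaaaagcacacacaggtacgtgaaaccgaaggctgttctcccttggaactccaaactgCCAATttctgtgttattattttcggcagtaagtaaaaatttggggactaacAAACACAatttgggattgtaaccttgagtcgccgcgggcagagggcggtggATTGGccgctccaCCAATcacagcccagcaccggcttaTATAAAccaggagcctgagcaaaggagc
H2ac4, chr13:23750838-23751087, plus strand: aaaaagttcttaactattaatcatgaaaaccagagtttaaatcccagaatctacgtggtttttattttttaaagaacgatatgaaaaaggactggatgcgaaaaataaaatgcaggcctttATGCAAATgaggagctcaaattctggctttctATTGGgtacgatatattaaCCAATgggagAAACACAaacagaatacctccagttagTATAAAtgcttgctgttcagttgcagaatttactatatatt
H2bc3, chr13:23746484-23746733, plus strand: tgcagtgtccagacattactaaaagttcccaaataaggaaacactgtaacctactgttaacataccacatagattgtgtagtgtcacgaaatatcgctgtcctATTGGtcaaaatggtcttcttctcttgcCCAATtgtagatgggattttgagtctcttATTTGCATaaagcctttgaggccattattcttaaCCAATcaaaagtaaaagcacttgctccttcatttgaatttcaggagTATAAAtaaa
H3c15, chr3:96239128-96239377, minus strand: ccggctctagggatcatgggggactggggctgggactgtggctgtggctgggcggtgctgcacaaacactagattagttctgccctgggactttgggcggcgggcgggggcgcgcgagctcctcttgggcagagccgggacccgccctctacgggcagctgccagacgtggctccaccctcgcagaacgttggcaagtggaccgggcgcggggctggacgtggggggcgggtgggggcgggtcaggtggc
H4c6, chr13:23551669-23551918, minus strand: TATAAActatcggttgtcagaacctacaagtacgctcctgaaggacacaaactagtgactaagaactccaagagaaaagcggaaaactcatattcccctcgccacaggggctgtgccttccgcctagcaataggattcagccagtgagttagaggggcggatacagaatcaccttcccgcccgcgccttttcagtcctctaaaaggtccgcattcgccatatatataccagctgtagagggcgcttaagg
The H1f5 window holds 3 CCAAT matches with 1 AAACACA and 1 TATAAA match, and the H2ac4 window holds 2 CCAAT matches, the octamer on the opposite strand, 1 AAACACA and 1 TATAAA match. The H2bc3 window holds 3 CCAAT matches, the octamer and 1 TATAAA match. The H4c6 window holds 1 TATAAA match at its far end, and the H3c15 window holds none of the 4. H2A and H2B genes sit head to head in 9 places in the RefSeq annotation, and both genes of the pair have a row of their own in 2 of them. In the pair H2ac8 and H2bc8 the H2A row is under the floor, and in the pair H2ac1 and H2bc1 the H2B row is, so no pair gives 2 measured levels.

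Between IL-1α and vehicle the histone rows differed little. No histone row passed 2-fold between IL-1α and vehicle, in M2 or in M1. Of all rows at the floor, 0.316% were past 2-fold upward and 0% downward with IL-1α in M2, and 0% in either direction in M1. The direction of the small differences was mostly down. With IL-1α, 41 of the 53 rows read lower in M2 and 46 of 53 in M1, where 11316 and 10738 of all 23410 rows did. Both phenotypes had 36 of the 53 lower. Of the 46 rows at the floor, 34 were lower in both phenotypes, where 17.1% of all rows at the floor were.

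Small differences were counted at 0.25 log2, a size chosen after the values were seen. In M1, 25 of the 41 histone rows at the floor were lower with IL-1α by at least that much (61.0%), where 2.26% of all rows were. None was higher by that much. In M2, 5 of 46 were lower by at least 0.25 (10.9%), where 1.92% of all rows were, and H2ac4 was higher. The SD of the IL-1α difference over all rows at the floor was 0.115 in M1 and 0.172 in M2. All 24 shared rows were lower with IL-1α in M1, 19 of them by at least 0.25, so the count in M1 is largely made of shared rows. Among rows with 1 gene, 6 of the 16 at the floor in M1 were lower by 0.25 or more.

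The rows that were lower in M1 came from the core histones. The 10 shared H3 rows differed by -0.51 to -0.38 between IL-1α and vehicle in M1, and by -0.03 to 0.03 in M2. H4c3 read 7.70 with IL-1α and 8.15 with vehicle in M1, a difference of -0.45. H4c6 read 8.21 with IL-1α and 8.61 with vehicle in M1, a difference of -0.40. H2bc3 read 8.45 with IL-1α and 8.83 with vehicle in M1, whereas in M2 it read 10.25 with IL-1α and 10.10 with vehicle. H2ac15 differed by -0.30 in M1 and -0.01 in M2. The linker histones had no such shift in M1, where H1f5 differed by -0.06, H1f2 by 0.03 and H1f1 by -0.11.

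In M2 the rows lower by at least 0.25 were others. They were H3c4, H2bc8, H4c9, H1f2 and the row of H2bc6 and H1f4. H3c4 read 8.03 with IL-1α and 8.52 with vehicle, a difference of -0.49, and differed by -0.20 in M1. H2bc8 read 9.27 with IL-1α and 9.76 with vehicle, a difference of -0.48, and differed by -0.23 in M1. H4c9 differed by -0.35, the row of H2bc6 and H1f4 by -0.30 and H1f2 by -0.26. H1f3 had the lowest value of any histone row, -0.86, at signals under the floor.

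**Figure D3:**
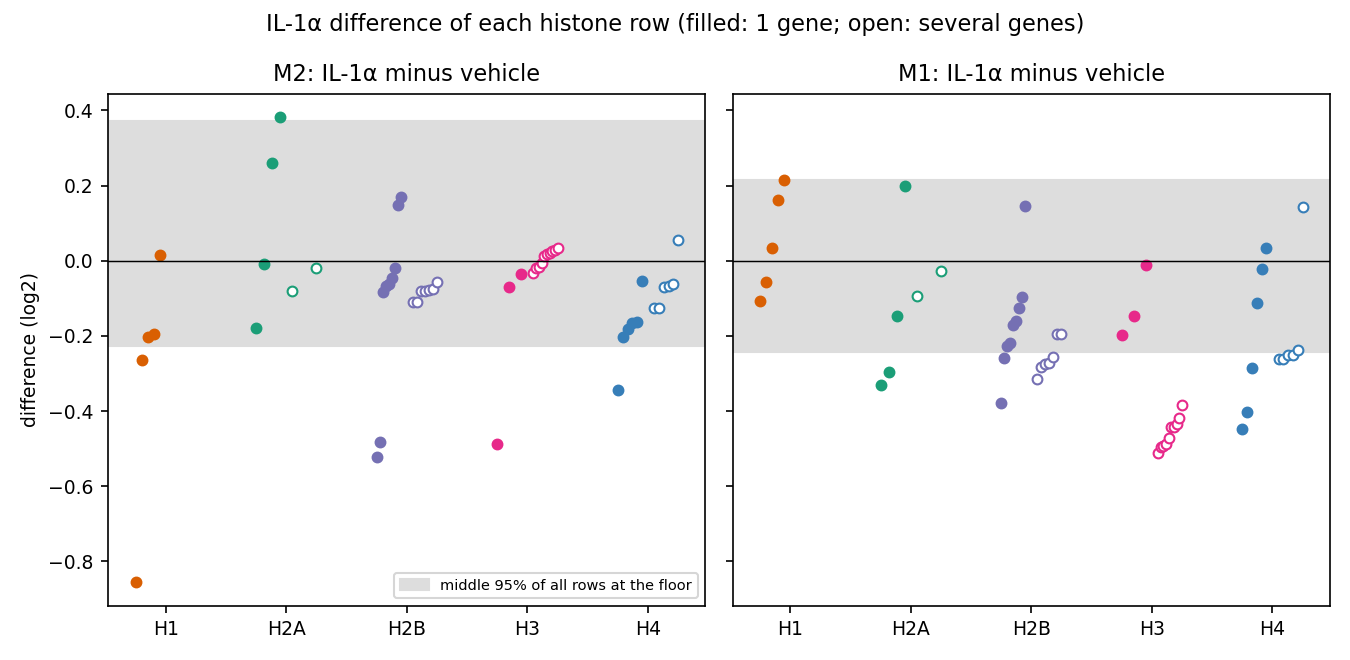
IL-1α minus vehicle difference (log2, vertical axis) of each histone row in M2 (left) and M1 (right), by class (horizontal axis), with filled points for rows with 1 gene and open points for rows of several genes. The grey band leaves out the lowest 2.5% and the highest 2.5% of all rows at the floor. In M1 the open H3 points lie below the band, at -0.51 to -0.38, and in M2 they lie at -0.03 to 0.03. The row that names both H2bc6 and H1f4 is not drawn.

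The additive limma fit, which tests an IL-1α effect shared by the phenotypes, called none of the 46 histone rows and none of all 12457 rows after Benjamini-Hochberg adjustment. The lowest limma adjusted p among the histone rows was 0.632. Before adjustment, 29 of the 46 histone rows (63.0%) had a limma p under 0.05, all of them lower with IL-1α, where 780 of all rows (6.26%) did. The histone rows share probes and sequence, so these 29 are not independent.

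The study asked whether the phenotypes respond differently to IL-1α. For the response in M2 less that in M1, no histone row passed 2-fold, where 0.329% of all rows at the floor were past it upward and 0% downward. The median over the histone rows was 0.18, where it was 0.06 over all rows at the floor. It was 0.20 over the shared rows and -0.02 over all 27 rows with 1 gene, of which 21 reached the floor. The -0.02 is the value of H3c7, which stayed under the floor on all 4 arrays. The sign over rows with 1 gene therefore rests in part on rows without a reliable signal. All 10 shared H3 rows lay between 0.36 and 0.53. All 5 H1 rows lay below 0, but H1f3 and H1f6 were under the floor on every array. H1f5 was at -0.14, H1f2 at -0.30 and H1f1 at -0.09. These differences could not be tested with 1 array per group.

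Other genes of DNA synthesis and division were also higher in M2. In a list of DNA replication genes, 18 of the 28 rows at the floor passed 2-fold in the IL-1α pair and 14 of 27 in the vehicle pair, all higher in M2, and limma called 27 higher and 1 lower. Of all rows at the floor, 7.75% were higher by 2-fold in the IL-1α pair and 6.70% in the vehicle pair. Of all rows tested, limma called 35.2% higher and 28.2% lower. Rrm2, a subunit of ribonucleotide reductase, read 10.43 and 10.27 in M2, against 7.58 and 7.84 in M1. The helicase subunit Mcm7 was higher by 2.11 with IL-1α and 1.64 with vehicle, and Dut, which keeps uracil out of DNA, by 2.17 and 1.98. Pcna, the sliding clamp, was higher by 0.45 and 0.57 in one of its rows. In a list of mitosis genes, all 15 rows at the floor passed 2-fold in both pairs, higher in M2, with the cyclin gene Ccnb2 at 10.82 and 10.70 in M2, against 7.57 and 7.54 in M1. The replication rows at the floor were 28 with IL-1α and 27 with vehicle in M2, against 20 and 21 in M1. The mitosis rows at the floor were 15 on each M2 array, against 6 on each M1 array. Rows at the floor in M2 only entered these counts through the group where they read higher. The M1 signals of Dut and Ccnb2, and that of Rrm2 with IL-1α, lay under the floor, so the sizes of these gaps are uncertain. The median difference was 1.18 with IL-1α and 0.98 with vehicle over all 30 replication rows, and 1.51 and 1.43 over all 17 mitosis rows, where the histone rows had 1.02 and 1.08.

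With IL-1α in M1, 4 of the 21 replication rows at the floor were lower by at least 0.25, where 25 of the 41 histone rows at the floor were. Of all rows at the floor, 2.26% were. Among histone rows with 1 gene, 6 of the 16 at the floor were. Without the floor the counts were 5 of 30 replication rows and 26 of 53 histone rows, where 2.2% of all rows were lower. The added replication row was Dut, at -0.29. Mcm7 differed by -0.26, Fen1, which trims Okazaki fragments, by -0.27, and Rrm2 by -0.26. The fourth was a row of the thymidine kinase gene Tk1, at 7.82 with IL-1α and 8.21 with vehicle. None of the 17 mitosis rows was lower by that much, and 6 of them reached the floor in M1. Regulators of S phase entry were mixed, with 17 of 18 rows at the floor. By 2-fold, 3 were higher and 4 lower in M2 with IL-1α, and 3 higher and 3 lower with vehicle. Of all rows at the floor, 7.75% were higher and 6.01% lower with IL-1α, and 6.70% and 6.77% with vehicle. Ccna2, the S phase cyclin, was higher in M2 by 3.66 with IL-1α and 3.32 with vehicle. E2f8 was higher by 1.83 and 1.90. The M1 signals of Ccna2 and E2f8 lay under the floor. The cyclin gene Ccnd2 differed by -2.83 and -3.28 and Ccne1 by -1.31 and -1.40.

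Among genes that make and degrade histone mRNA, 17 of 18 rows reached the floor. None of them was higher in M2 by 2-fold, 1 was lower by 2-fold in both pairs, and limma called 5 higher and 3 lower. At 2-fold, 7.75% of all rows at the floor were higher and 6.01% lower with IL-1α, and 6.70% and 6.77% with vehicle. Of all rows tested, limma called 35.2% higher and 28.2% lower. The median over the 18 rows was 0.13 with IL-1α and 0.05 with vehicle. Rows at the floor that differed by at least 0.25 were 7 higher and 2 lower with IL-1α, and 5 higher and 3 lower with vehicle. Of all 12290 rows at the floor in the IL-1α pair, 4152 were higher and 2984 lower by that much. Of all 12310 in the vehicle pair, 3698 were higher and 3312 lower. Slbp, the stem-loop binding protein, had a row at 8.78 and 8.73 in M2, against 8.82 and 8.69 in M1, and the arrays overlapped. Its other row read 9.09 and 9.05 in M2, against 8.96 and 9.00 in M1, with both M2 arrays above both M1 arrays (limma adjusted p = 0.38). Npat read 9.17 and 9.15 in M2, against 9.04 and 9.09 in M1 (limma adjusted p = 0.36). Eri1, an exonuclease that trims the end of histone mRNA, was higher by 0.83 with IL-1α and 0.70 with vehicle. Cpsf3, the endonuclease that cuts histone pre-mRNA, was higher by 0.50 and 0.40, and Upf1, a helicase of mRNA decay, differed by -0.39 and -0.48. Tut7, a uridylyltransferase linked to histone mRNA decay in human cells, differed by -1.17 and -1.09.

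Histone variants outside the clusters, whose mRNAs are mostly polyadenylated, were split. Of 14 rows, 10 reached the floor, 2 were higher in M2 by 2-fold or more in both pairs and limma called 5 higher. Of all rows at the floor, 7.75% were higher by 2-fold with IL-1α and 6.70% with vehicle, and limma called 35.2% higher. Cenpa, the centromeric H3, read 10.69 and 10.74 in M2, against 8.85 and 9.12 in M1, and H2az2 read 10.58 and 10.51 in M2, against 9.39 and 9.39 in M1. Macroh2a1, a variant of silent chromatin, read 11.34 and 11.21 in M2, against 11.39 and 11.33 in M1. Among 15 rows of histone chaperones, all at the floor, 1 was higher and 1 lower in M2 by 2-fold or more in each pair. Of all rows at the floor, 6.01% were lower by 2-fold with IL-1α and 6.77% with vehicle. The median difference of the 15 was 0.22 with IL-1α and 0.16 with vehicle. Ipo4 was higher by 0.84 and 0.73. Asf1b, whose expression is linked to division, read 10.61 and 10.51 in M2, against 9.04 and 9.01 in M1. Its paralog Asf1a was lower in M2, with differences of -0.77 with IL-1α and -0.90 with vehicle. So was Daxx, a chaperone of a replication-independent H3 variant, with -1.70 and -1.74.

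**Figure D4:**
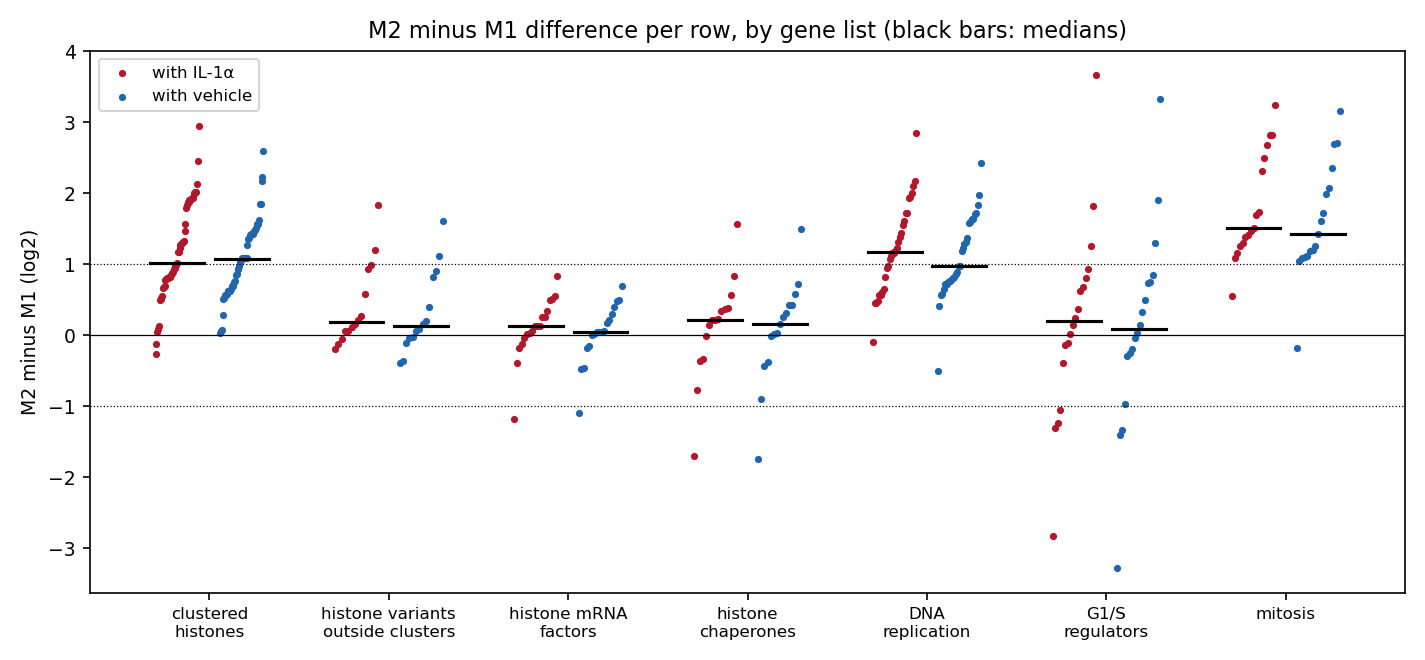
M2 minus M1 difference (log2, vertical axis) of each row with IL-1α (red, left) and with vehicle (blue, right), for the histone rows and 6 other gene lists (horizontal axis). Black bars are medians and dotted lines mark 2-fold in each direction. The histone, DNA replication and mitosis rows have medians of 0.98 to 1.51, and the histone mRNA factors have medians of 0.13 and 0.05.

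Markers of other bone marrow cells were read beside the histone rows. Of 8 rows of myeloid progenitor markers, 1 reached the floor, Mpo at 7.91 in M2 with vehicle. Their summed linear signal, to which the brighter rows add most, was 932 and 989 in M2, against 841 and 825 in M1, and came mostly from rows under the floor. Of 8 neutrophil rows, 7 reached the floor on some array. Of the 8, 6 were higher in M2 with IL-1α and 7 with vehicle, with median differences of 0.85 and 1.01, and limma called 5 higher (Ngp, Ltf, S100a8, S100a9 and Mmp8) and 1 lower (Lcn2). Of all 23410 rows, 10710 were higher in M2 with IL-1α and 13105 with vehicle. Of all rows tested, limma called 35.2% higher and 28.2% lower. Ngp, a neutrophil granule protein, read 9.93 and 9.92 in M2, against 7.51 and 7.41 in M1. The summed signal was 2976 and 3261 in M2, against 5576 and 6267 in M1, and without Lcn2 it was 2119 and 2228 in M2, against 940.3 and 905.2 in M1. Of 4 erythroid rows, only Tfrc, which many dividing cells use to take up iron, reached the floor. It read 13.19 and 13.12 in M2, against 9.57 and 9.60 in M1. Lymphocyte markers had 1 of 7 rows at the floor, and mast and basophil markers 1 of 6. Stromal and endothelial markers had 5 of 8 rows at the floor, with sums of 1972 and 1993 in M2, against 1944 and 1850 in M1. Dendritic cell markers had 4 of 7 rows at the floor. Of these, Clec9a, Xcr1 and Ccr7 were lower in M2 by 2-fold or more in both pairs. Of all rows at the floor, 6.01% were lower by 2-fold with IL-1α and 6.77% with vehicle. Zbtb46 was higher in M2 by 0.47 with IL-1α and 0.48 with vehicle. Clec9a read 5.71 and 5.62 in M2, against 9.59 and 9.97 in M1. The part of such cells in the histone differences was not tested.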

How the data were processed

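The authors deposited 1 log2 signal per row and array. The submitters' processing notes name RMA and Affymetrix Expression Console. Versions, settings and the log base are not given in the sources used here, and the values, from 3.09 to 14.47, have the range of log2. RMA sets arrays to a common distribution, so a global change in RNA output cannot be seen. The labels name a whole-transcript labelling kit and do not state how it primes RNA without a poly(A) tail. Rows were named through GEO's platform annotation, where 21789 rows carry 1 symbol and 1621 several. RefSeq (GRCm38.p6) gave chromosomes and promoters.

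Arrays were compared in pairs by subtracting log2 values, and a row was called at 2-fold where at least 1 array reached the floor. Tests came from limma 3.58.1 in R 4.3.3 (lmFit, eBayes with trend), fitted to the 12457 rows at the floor on at least 1 array with phenotype and treatment as additive terms, with 1 residual and 8.44 prior degrees of freedom, Benjamini-Hochberg adjusted at 0.05. The steps were tested on simulated data. Groups came from the source names. The members and gene lists were chosen with earlier results of these data known. Rows named in full were, per class, the 4 at the floor with the largest mean gap between M2 and M1, the brightest and dimmest, the 3 highest and lowest for IL-1α in each phenotype, and up to 4 per other list, plus Slbp, Npat and polarisation genes. Others, such as Pcna, Mcm7, Fen1, Tk1, Eri1, Cpsf3, Upf1 and Macroh2a1, were named after their values were seen. Alternatives were loess centring, a further quantile normalisation, a threshold of 1.5-fold, a higher floor (75th percentile) or none, rows with 1 symbol only and rows averaged per symbol set.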

Additional observations from a re-analysis of the deposited data

Results flagged for a closer look

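H2ac4 was the single histone row in which IL-1α and vehicle differed in opposite directions by at least 0.25 log2. It was 0.38 higher with IL-1α in M2, at 8.67 with IL-1α and 8.29 with vehicle. In M1 it differed by -0.33, at 5.73 with IL-1α and 6.06 with vehicle, and both M1 signals lay under the floor. With 1 array per group the difference between the responses was not tested.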

How the results depend on the processing

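Under a 1.5-fold threshold, 41 histone rows were higher in M2 with IL-1α and 41 with vehicle, and 1 row was past it for the difference of the IL-1α responses. With rows of 1 gene only, 9 rows were past 2-fold in the IL-1α pair and 10 in the vehicle pair, limma called 20, the median IL-1α difference in M1 was -0.15, the median difference of the responses turned to -0.0237, and 6 rows were lower by at least 0.25 with IL-1α in M1. With rows averaged per symbol set, these were 12 and 13 rows, a median of -0.15 in M1, a median response difference of 0.0131 and 9 rows; both settings hold fewer rows by construction. The medians over rows of 1 gene include rows under the floor, and -0.0237 is the value of H3c7, under it on all 4 arrays. Without a floor, 1 row, H1f3, was past 2-fold for the response difference. After loess centring, 20 histone rows were past 2-fold in the vehicle pair (27 as reported), where 6.51% of all rows were higher, and their median difference was 0.98. The vehicle count therefore depends on rows close to the threshold. For the rows lower by at least 0.25 with IL-1α in M2, 1 was left with the floor at the 75th percentile and 9 after a further quantile normalisation, and the cause was not tested. The 0.25 size and medians over rows at the floor only were chosen after seeing the data. No paired analysis was possible because each group holds 1 array, and for the same reason no array could be left out. The number of arrays limits the precision, and rows under the floor have no reliable order.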

Other observations

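Some histone genes once carried Hist3 or Hist4 names but now have symbols outside the rule, on chromosomes 11 and 6. H2aw read 11.15 with IL-1α and 11.29 with vehicle in M2, against 11.24 and 11.39 in M1. H4f16 read 9.42 and 9.47 in M2, against 8.92 and 9.09 in M1, differences of 0.50 with IL-1α and 0.38 with vehicle. H2bu1-ps read 8.50 and 8.28 in M2, against 8.09 and 8.05 in M1, and H2bu2 was under the floor on every array.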
